A study of Bos taurus with 9 samples.

Results

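The regions described here were 1967 broad peaks of histone H3 lysine 27 acetylation (H3K27ac) that were present after butyrate at places where the control cells had no H3K27ac peak. They were selected on 2 values, a length of at least 1000 bp in the butyrate H3K27ac list and no shared base with any peak of the control H3K27ac list, on the 29 autosomes and the X chromosome. They made up 19.8% of the 9951 butyrate H3K27ac peaks of that length, whereas 67.7% of all 187465 butyrate H3K27ac peaks, most of them short, met no control peak. The share of new peaks among broad and among all peaks follows from the selection and is given as a description only. Hereafter the 1967 regions are called new broad peaks, the 7984 butyrate peaks of at least 1000 bp that met a control H3K27ac peak are called kept broad peaks, and the 124860 butyrate peaks under 1000 bp without a control peak are called shorter new peaks.

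The data were ChIP-seq peak lists from MDBK cells, an established epithelial line from the kidney of cattle (Bos taurus), used in the study beside rumen epithelial cells and tissue. Untreated control cells were compared with cells that had received 5 mM butyrate for 24 h, with antibodies to H3K27ac, H3K9ac, RNA polymerase II (Pol II) and H3K9me3 in each condition. Each of the 8 groups was 1 library, so that replicate error is unknown and conditions could not be tested against each other. All intervals below are 95% intervals for counting error only, and neighbouring peaks are not independent of one another. Control libraries were run on lane 4 and butyrate libraries on lane 5, hence lane and treatment cannot be told apart. The lists ranged from 25623 peaks (control H3K9me3) to 187465 peaks (butyrate H3K27ac) and held no peak heights. The control H3K27ac list held 94603 peaks. The read summary of the study lists more reads for the butyrate than for the control H3K27ac library, and deeper libraries give more and longer peaks; the part of depth in the selection of the new broad peaks was not tested.

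Butyrate is a short-chain fatty acid of microbial fermentation in the rumen and gut that inhibits histone deacetylases, the enzymes that take acetyl groups off histone tails. H3K27ac marks active promoters and enhancers, and long stretches of it are typical of strongly active regulatory regions. H3K9ac is a second acetyl mark, found above all at active promoters, Pol II is the enzyme that transcribes protein-coding genes, and H3K9me3 marks silenced heterochromatin. The lists give positions without genes, and no gene annotation of their assembly (UMD3.1) was used here, so that regions are named by position and the cell type could not be checked against marker genes.

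The new broad peaks were mostly just over the length limit. Their median length was 1159 bp (1149 to 1172), with quartiles of 1063 and 1343.5 bp. There were 1263 of 1000 to 1249 bp (64.2%), 459 of 1250 to 1499 bp (23.3%), 214 of 1500 to 1999 bp (10.9%) and 31 of 2000 bp or more (1.58%). Kept broad peaks were longer, with a median of 1272.5 bp (1264 to 1281), and 715 of them (8.96%) reached 2000 bp. Together the new broad peaks covered 2.44 Mb, which was 3.01% of the bases under butyrate H3K27ac peaks. At the limit itself there was no visible step: 152 new peaks of 1000 to 1019 bp were inside and 193 of 980 to 999 bp were outside, and butyrate H3K9ac met 70.4% of the former and 73.6% of the latter.

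The longest new broad peak was chr6:23357433-23360364, of 2932 bp. No control H3K27ac base lay within 10 kb on either side of it, and the nearest control peak was 14.3 kb away, while 6178 bp of its flanks were under other butyrate H3K27ac peaks. It held no control H3K9ac peak and 4 butyrate H3K9ac peaks, which covered 1316 bp or 44.9% of it, and Pol II covered 266 bp of it in control and 234 bp after butyrate. The next longest, chr9:23413194-23416121 (2928 bp), had little else within it: H3K9ac covered 217 bp in control and 284 bp after butyrate, and neither Pol II nor H3K9me3 had a peak there. The third, chr28:18083980-18086564 (2585 bp), carried H3K9me3 in both conditions, over 431 bp in control and 564 bp after butyrate, and lay only 0.117 kb from a control H3K27ac peak. The fourth, chr14:63593756-63596338 (2583 bp), carried most butyrate Pol II of the 10 longest, with 1318 bp over 51.0% of its length, beside 328 bp in control. The other 6 of the 10 longest were chr15:59572810-59575198, chr4:71477492-71479806, chr17:376332-378638, chr22:6096552-6098852, chr19:10880046-10882338 and chr16:53158127-53160395, between 2269 and 2389 bp. All 10 had a butyrate H3K9ac peak, which met 87.8% of new and 96.2% of kept peaks of 1500 bp or more. The 10 differed in Pol II and H3K9me3.

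Most new broad peaks also carried the other acetyl mark after butyrate. A butyrate H3K9ac peak met 1518 of the 1967 (77.2%, 75.3 to 79.0), against 34.9% of all butyrate H3K27ac peaks. The H3K9ac lists took no part in the selection. The share was 26.2% (25.9 to 26.4) among shorter new peaks and 89.5% (88.8 to 90.2) among kept broad peaks. In control cells an H3K9ac peak met 690 of the new broad peaks (35.1%, 33.0 to 37.2), beside 27.4% of all peaks, 11.1% of shorter new peaks and 86.2% of kept broad peaks. The intervals of the 3 sets did not overlap in either condition. A longer region meets a peak more easily, and therefore the central base of each region, which does not depend on length, was also scored. It lay in a butyrate H3K9ac peak in 39.3% of new broad peaks (37.2 to 41.5), in 18.3% of shorter new peaks and in 49.3% of kept broad peaks. In control cells the central base lay in an H3K9ac peak in 12.3% (10.9 to 13.8), 7.62% and 56.1%, respectively.

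**Figure D1:**
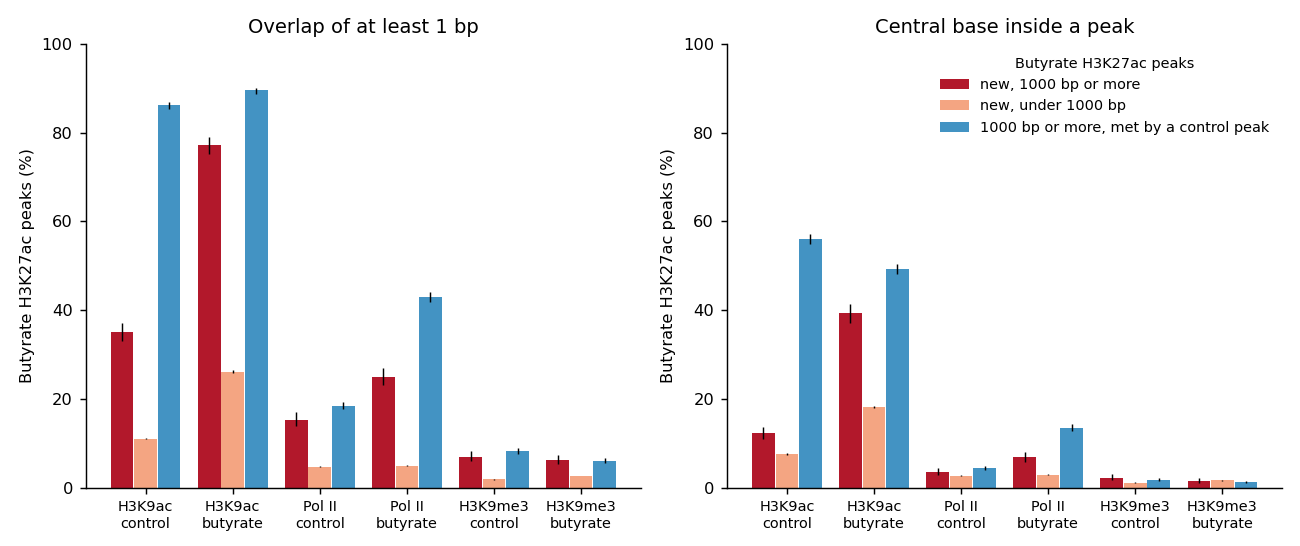
Percent of butyrate H3K27ac peaks met by a peak of each of 6 other lists (left) or with their central base inside such a peak (right), for new broad, shorter new and kept broad peaks; bars are shares and lines 95% Wilson intervals. New broad peaks lay between the other sets for H3K9ac, with 77.2% met after butyrate and 35.1% in control, and H3K9me3 met under 10% of every set.

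The change in H3K9ac within the same regions went in opposite directions in new and kept broad peaks. Bases of new broad peaks under H3K9ac were 257.82 kb in control and 792.79 kb after butyrate, a log2 ratio of 1.62, and in shorter new peaks the log2 ratio was 1.31. In kept broad peaks the bases were 5814.4 kb in control and 4896.8 kb after butyrate, a log2 ratio of -0.25. The log2 ratio was -0.45 in butyrate peaks under 1000 bp that met a control H3K27ac peak, although it was 0.35 for the whole H3K9ac list. New and kept peaks were divided by control H3K27ac, and control H3K9ac met 35.1% of new and 86.2% of kept broad peaks. The directions are therefore not independent of the selection. Of the new broad peaks, 916 (46.6%) met H3K9ac only after butyrate, against 18.5% of all butyrate H3K27ac peaks. A further 602 (30.6%) met H3K9ac in both conditions, 88 (4.47%) in control only and 361 (18.4%) in neither. Hence 35.1% of these regions had an H3K9ac peak before butyrate although they had no H3K27ac peak. The study lists fewer reads for the butyrate than for the control H3K9ac library, and the part of depth in the H3K9ac values was not tested.

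H3K9ac did not fill the new broad peaks from end to end. Of the 1518 with butyrate H3K9ac, 924 held 1 H3K9ac peak, 513 held 2, 77 held 3 and 4 held 4 or more. H3K9ac covered at least 50% of the length in 485 new broad peaks (24.7%) and at least 80% in 55 (2.80%). The butyrate H3K9ac peaks that met new broad peaks had a median length of 319 bp (312 to 330), beside 271 bp for the whole butyrate H3K9ac list, and 84.2% of them lay wholly inside. In control cells the order was the reverse, with 266 bp (259 to 276) beside 300 bp for the whole control H3K9ac list. When every new broad peak was cut into 10 equal parts, butyrate H3K9ac covered 21.6% and 21.3% of the outermost parts and up to 39.5% in the middle. Control H3K9ac had a similar shape at a lower level, with 6.41% and 6.57% at the ends and up to 12.7% within. Kept broad peaks had a like shape, with butyrate H3K9ac over 28.7% of each outermost part and up to 50.2% in the middle. Where butyrate H3K9ac was present, its median cover was 40.3% of the length in new and 47.0% in kept broad peaks.

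The surroundings were then compared with the centre. Butyrate H3K9ac covered 39.1% of the central 200 bp and 9.58% of the bases 4 to 5 kb away, and the control values were 12.1% and 5.46%. For Pol II the central and outer values were 6.86% and 2.36% after butyrate and 3.36% and 1.11% in control. For H3K9me3 they were 1.43% and 0.851% after butyrate and 2.17% and 0.454% in control. The selection used none of these 6 lists. Each covered more of the central 200 bp than of the bases 4 to 5 kb away, in control cells as well as after butyrate. In shorter new peaks, too, all 6 lists covered more bases at the centre than 4 to 5 kb away. The same held for both H3K9ac lists in kept broad peaks. A rise at the centre was therefore not particular to new broad peaks. All ChIP libraries were called against the same input library, and regions with few input reads can show peaks in several lists at once; the part of the input in these values was not tested.

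**Figure D2:**
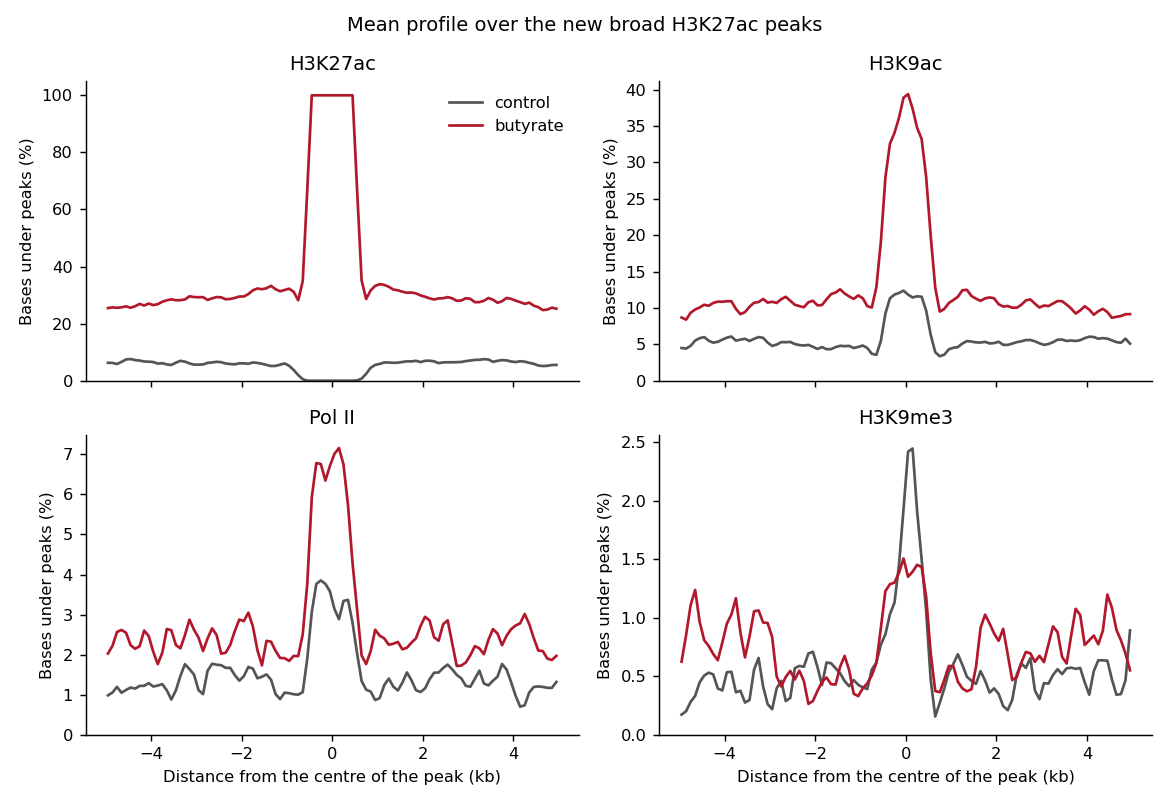
Percent of bases under peaks in 100-bp bins, against distance from the centre of the 1967 new broad peaks in kb, for control and butyrate lists of 4 antibodies (vertical scales differ). The H3K27ac panel is fixed by the selection near the centre; H3K9ac reached 39.1% over the central 200 bp after butyrate and 12.1% in control, and control H3K9me3 exceeded butyrate H3K9me3 there.

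Acetylation was also more extensive around the new broad peaks after butyrate. Within 10 kb on either side, leaving out the region itself, H3K27ac covered a median of 781 bp in control and 4830 bp after butyrate, and 1911 of the regions (97.2%) had more after butyrate, against 89.5% of shorter new peaks and 84.1% of all butyrate H3K27ac peaks. The H3K27ac flanks are not independent of the selection. H3K9ac in the flanks covered a median of 573 bp in control and 1617 bp after butyrate, with more after butyrate in 1563 (79.5%) and less in 332 (16.9%), beside more in 67.9% of shorter new peaks and in 60.3% of all. Kept broad peaks had flank medians of 1626 and 1787.5 bp of H3K9ac, with more in 49.7% and less in 49.2%. Flank Pol II was greater after butyrate at 1014 new broad peaks (51.6%) and smaller at 615 (31.3%), beside 42.5% and 30.9% of all. Flank H3K9me3 was greater at 556 (28.3%) and smaller at 397 (20.2%), beside 31.8% and 17.1% of all, so that its share of regions with more was below that background.

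Pol II was found at a minority of the new broad peaks. A butyrate Pol II peak met 491 of them (24.96%, 23.1 to 26.9), against 9.41% of all butyrate H3K27ac peaks, 4.96% of shorter new peaks and 42.9% of kept broad peaks. A control Pol II peak met 302 (15.4%, 13.8 to 17.0), against 5.67% of all peaks, 4.70% of shorter new peaks and 18.5% of kept broad peaks. For the central base the butyrate shares were 6.86% (5.83 to 8.07) in new broad, 2.93% in shorter new and 13.5% in kept broad peaks, and the control shares were 3.51% (2.78 to 4.42), 2.73% and 4.52%. The whole Pol II list was smaller after butyrate (31225 against 56225 peaks), whereas the bases of new broad peaks under Pol II were 78.5 kb in control and 146.48 kb after butyrate, a log2 ratio of 0.90 beside -0.71 for the whole list. The log2 ratio was 0.21 in shorter new peaks, 1.63 in kept broad peaks and 1.05 in all butyrate H3K27ac peaks. A ratio above that of the list was therefore common to H3K27ac peaks.

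The Pol II peaks in the 2 conditions were mostly at different regions. Only 90 new broad peaks (4.58%) met Pol II in both conditions, while 401 (20.4%) met it only after butyrate and 212 (10.8%) only in control. Over all butyrate H3K27ac peaks the shares were 1.19%, 8.22% and 4.49%, and in kept broad peaks 10.3%, 32.7% and 8.24%. Thus control Pol II was more often lost than kept in new broad peaks and over all peaks, but not in kept broad peaks. Pol II after butyrate was more frequent where H3K9ac was also present, at 418 of 1518 (27.5%, 25.3 to 29.8) against 73 of 449 (16.3%, 13.1 to 19.96). The same order held over all butyrate H3K27ac peaks (18.1% against 4.76%) and in shorter new peaks (9.40% against 3.39%). Regions with butyrate H3K9ac were somewhat longer (median 1181.5 against 1109 bp), which by itself gives more overlap. The 5 longest with both were chr6:23357433-23360364, chr14:63593756-63596338, chr15:59572810-59575198, chr16:53158127-53160395 and chr5:34145237-34147482. In the last of these, of 2246 bp, H3K9ac covered 294 bp in control and 1452 bp after butyrate, and Pol II covered no base in control and 450 bp after butyrate.

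H3K9me3 was found at few of the new broad peaks in either condition. A control H3K9me3 peak met 138 of them (7.02%, 5.97 to 8.23), against 2.42% of all butyrate H3K27ac peaks and 8.28% of kept broad peaks. A butyrate H3K9me3 peak met 123 (6.25%, 5.27 to 7.41), against 2.80% of all and 6.06% of kept broad peaks. A longer region meets a peak more easily, and kept broad peaks were nearer in length. The intervals of the new broad peaks in the 2 conditions overlap. Over the same comparison the whole H3K9me3 list grew from 25623 to 89478 peaks, a log2 ratio in bases of 1.95, beside -0.13 within the new broad peaks (34.8 kb in control and 31.7 kb after butyrate) and -0.44 within kept broad peaks. It was 0.49 within shorter new peaks and 0.19 within all butyrate H3K27ac peaks, so that a ratio far below that of the list was common to H3K27ac peaks. Only 25 new broad peaks (1.27%) met H3K9me3 in both conditions, 98 (4.98%) only after butyrate and 113 (5.74%) only in control. All butyrate H3K27ac peaks had 0.320%, 2.48% and 2.10%, and kept broad peaks 1.13%, 4.93% and 7.15%. The central base lay in control H3K9me3 in 2.29% (1.71 to 3.05) and in butyrate H3K9me3 in 1.47% (1.03 to 2.11), beside 1.13% and 1.67% of shorter new peaks.

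The 5 longest regions with butyrate H3K9me3 were chr28:18083980-18086564, chr22:6096552-6098852, chr16:53158127-53160395, chr27:22977691-22979935 and chr5:1458979-1461146. All 5 also had butyrate H3K9ac, which met 87.8% of new broad peaks of 1500 bp or more. It covered from 199 bp in the chromosome 27 region to 1254 bp in the chromosome 5 region. H3K9me3 covered between 199 and 564 bp of the 5 regions, so that each held 1 or 2 short peaks of the silencing mark inside a much longer acetylated stretch.

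Combinations of marks were also counted. H3K9ac alone met 1032 new broad peaks (52.5%), H3K9ac with Pol II met 383 (19.5%), and all 3 lists met 35 (1.78%). The shares over all butyrate H3K27ac peaks were 27.6%, 5.91% and 0.399%. None of the 3 butyrate lists met 361 (18.4%), against 60.7% of all. No peak of any of the 6 other lists, in either condition, met 270 (13.7%, 12.3 to 15.3), against 49.0% of all butyrate H3K27ac peaks, 62.2% of shorter new peaks and 2.29% of kept broad peaks. At least 1 of the 3 control lists met 922 (46.9%, 44.7 to 49.1) of the new broad peaks and 16.2% of the shorter new peaks.

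H3K9ac met longer new H3K27ac peaks more often. Butyrate H3K9ac met 17.8% of new peaks of 199 to 299 bp and 61.2% of those of 700 to 999 bp, and among new broad peaks 72.2% of those of 1000 to 1249 bp, 85.2% of those of 1250 to 1499 bp and 87.8% (83.1 to 91.3) of the 245 of 1500 bp or more. At equal length of 1000 to 1249 bp, it met 84.8% (83.6 to 85.9) of kept peaks. The central base was covered in 13.6%, 33.0%, 37.1%, 45.1% and 39.6% of the same 5 classes of new peaks, and the interval of the last class (33.7 to 45.8) overlapped those of both shorter broad classes (34.5 to 39.8 and 40.6 to 49.7). In control cells the central share was 5.88% for 199 to 299 bp, 12.54% for 700 to 999 bp and between 10.7% and 12.9% for the 3 classes of new broad peaks. For butyrate Pol II the central shares were 6.05% at 700 to 999 bp and 7.13%, 6.32% and 6.53% in the 3 broad classes. Thus the central share of butyrate H3K9ac was higher in each longer class up to 1250 to 1499 bp, and those of control H3K9ac and butyrate Pol II varied little from 700 bp upwards.

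**Figure D3:**
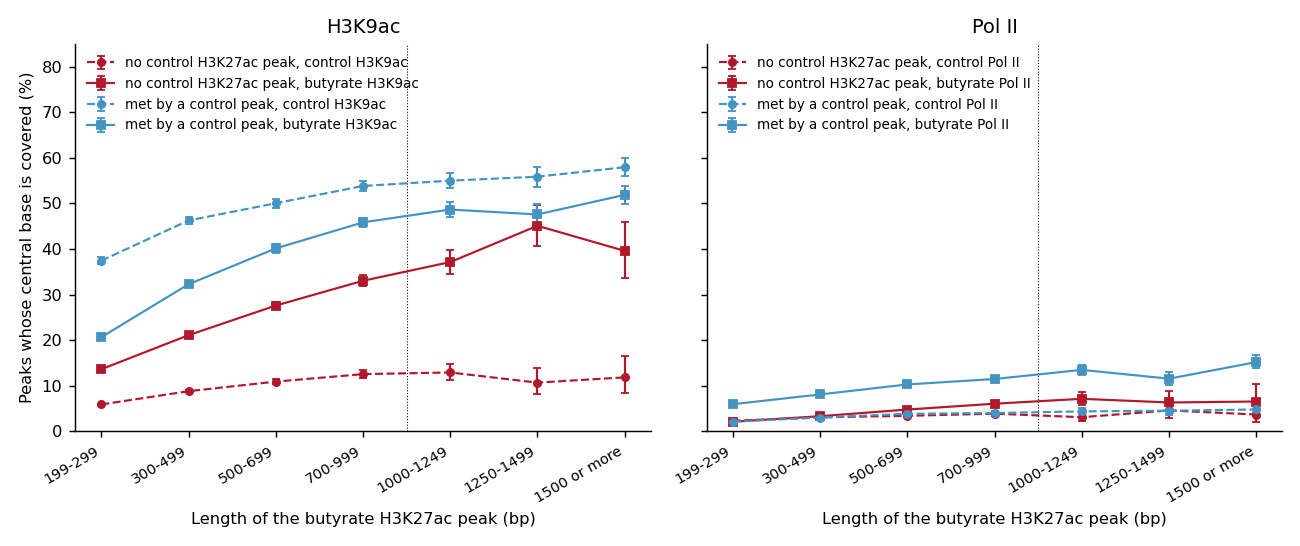
Percent of butyrate H3K27ac peaks whose central base lay in an H3K9ac peak (left) or a Pol II peak (right), by length of the H3K27ac peak in bp, for peaks without (red) and with (blue) a control H3K27ac peak; points are shares, lines 95% Wilson intervals, and the dotted line is the limit of 1000 bp. At new peaks butyrate H3K9ac went from 13.6% in the shortest class to 45.1% at 1250 to 1499 bp, while control H3K9ac stayed under 13%.

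The new broad peaks lay near acetylation that was already present in control cells. The median distance to the nearest control H3K27ac peak was 2.07 kb (1.89 to 2.21), with quartiles of 0.787 and 5.92 kb, and it was 3.17 kb (3.13 to 3.21) for shorter new peaks. The distance was under 1 kb for 598 (30.4%), 1 to 5 kb for 815 (41.4%), 5 to 20 kb for 447 (22.7%), 20 to 50 kb for 86 (4.37%) and 50 kb or more for 21 (1.07%). Control peaks lay within 5 kb on both sides of 499 (25.4%, 23.5 to 27.3), compared with 18.8% of shorter new peaks. The closest lay 5 bp from a control peak, and the lists do not tell the lateral growth of a control peak from a separate peak beside it.

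With distance from control H3K27ac, control H3K9ac became less frequent, and butyrate H3K9ac varied less. Control H3K9ac met 47.8% (43.8 to 51.8) of new broad peaks under 1 kb, 33.3% at 1 to 5 kb, 25.7% at 5 to 20 kb and 16.8% (10.9 to 25.03) of the 107 at 20 kb or more. Butyrate H3K9ac met 78.9%, 79.4%, 72.9% and 68.2% (58.9 to 76.3), respectively, and the last interval lay below that at 1 to 5 kb (76.5 to 82.0). Butyrate Pol II met 27.6%, 24.9%, 23.3% and 17.8%, with overlapping intervals between neighbouring classes. The central base, in the same order, lay in butyrate H3K9ac in 41.1%, 38.2%, 38.7% and 40.2%, so that the frequency of H3K9ac at the centre hardly varied with distance.

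**Figure D4:**
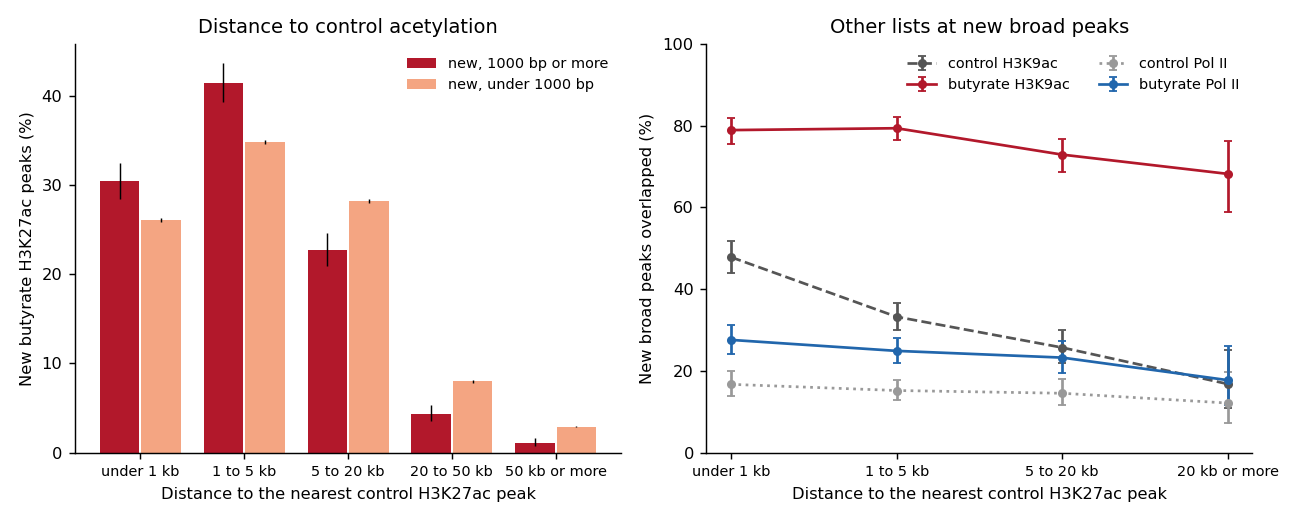
Left, percent of new broad and shorter new peaks by distance to the nearest control H3K27ac peak; right, percent of new broad peaks met by H3K9ac and Pol II peaks in each class of distance; lines are 95% Wilson intervals. Control H3K9ac went from 47.8% under 1 kb to 16.8% at 20 kb or more, and butyrate H3K9ac from 78.9% to 68.2%.

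The 5 farthest new broad peaks lay 149.66 kb or more from any control H3K27ac peak. The farthest, chr11:40672567-40673775 (1209 bp), was 1019.9 kb from any control H3K27ac peak, and 2 butyrate H3K9ac peaks covered 632 bp of it (52.3%). The others were chr29:596973-598264 at 368.66 kb, chr9:101267388-101268716 at 273.53 kb, chr7:59939842-59941354 at 264.13 kb and chr1:150190068-150191222 at 149.66 kb. None of the 5 held a Pol II or H3K9me3 peak in either condition. Among all new broad peaks, 64.3% met Pol II in neither condition and 88.0% met H3K9me3 in neither. The chromosome 7 region was the only one of them with control H3K9ac, over 289 bp, and the chromosome 29 region was the only one with no butyrate H3K9ac.

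Some regions were almost filled with H3K9ac that had been absent in control cells. Among new broad peaks without control H3K9ac, chr10:6704206-6706045 (1840 bp) had most bases under butyrate H3K9ac, 1679 bp in 3 peaks or 91.3% of its length, and no Pol II or H3K9me3. The next, chr7:5489489-5490956 (1468 bp), had 1341 bp of H3K9ac (91.3%) and 278 bp of Pol II after butyrate and no peak of the other control lists. The others were the chromosome 6 region described above (44.9% covered), chr28:18099144-18100910 with 1306 bp (73.9%) and chr11:509980-511565 with 1243 bp of H3K9ac (78.4%) and 449 bp of Pol II. In covered bases these regions show the upper end and not the typical case, since the median covered length in regions with butyrate H3K9ac was 492 bp. In share of length the chromosome 6 region was near the median of 40.3% in regions with butyrate H3K9ac.

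Most new broad peaks stood alone, and a minority lay close to one another; no comparison set was scored for this. Neighbours were joined into chains in which no gap exceeded 12.47 kb, with a median gap of 4.52 kb. In this way 516 of them (26.2%, 24.3 to 28.2) formed 223 chains of 2 to 5, and 1451 (73.8%) stood alone. There were 171 chains of 2, 36 of 3, 14 of 4 and 2 of 5. The first chain of 5, chr1:57080225-57098376, spanned 18.2 kb, in which H3K27ac covered 1156 bp in 4 control peaks and 12289 bp in 13 butyrate peaks. H3K9ac there covered 1587 bp in control and 5653 bp after butyrate, and Pol II 678 bp and 1555 bp. The other chain of 5, chr7:1515925-1537345, had 199 bp of control and 9993 bp of butyrate H3K27ac, 212 bp and 3757 bp of H3K9ac, and 0 bp and 678 bp of Pol II. The next chains, with 4 each, were chr3:110140926-110158678, chr1:90434034-90454042 and chr11:24716277-24737680, and in each of the 5 chains H3K9ac and Pol II covered more bases after butyrate than in control.

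At the scale of 1 Mb, 949 of 2677 windows held a new broad peak, and 132 windows with 4 or more held 679 of them (34.5%). The 3 windows with most were chr15:43000001-44000000 with 11, and chr11:37000001-38000000 and chr28:18000001-19000000 with 10 each. In the chromosome 15 window, control and butyrate lists covered 72074 and 208802 bp for H3K27ac, 65463 and 107099 bp for H3K9ac, 25823 and 25590 bp for Pol II and 11360 and 23854 bp for H3K9me3. In the chromosome 28 window, which held the third longest region, H3K27ac covered 43605 bp in control and 116120 bp after butyrate, and H3K9me3 3145 and 13139 bp. In the order given, the 3 windows held 191, 139 and 95 control H3K27ac peaks.

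The density of new broad peaks was counted per chromosome. Across the autosomes the density was 78.3 per 100 Mb, from 35.01 on chromosome 29 (18 regions) to 119 on chromosome 22 (73 regions). Chromosomes 5 (133), 1 (124) and 10 (114) held the largest numbers. Of all new H3K27ac peaks, those of 1000 bp or more made up 2.01% on chromosome 22 and 1.02% on chromosome 29, with intervals of 1.60 to 2.52 and 0.648 to 1.61, which overlap.

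The X chromosome stood apart, with 2 new broad peaks on 148.81 Mb, or 1.34 per 100 Mb. They were 2 of 1987 new H3K27ac peaks there (0.101%, 0.0276 to 0.366), compared with 1965 of 124840 on the autosomes (1.57%, 1.51 to 1.64). New peaks of 500 bp or more were 7.05% of new peaks on the X and 16.2% on the autosomes. Broad peaks as a whole went from 42 of 1583 control H3K27ac peaks on the X (2.65%) to 17 of 2746 butyrate peaks (0.619%), whereas on the autosomes they went from 4.89% to 5.38%. The 2 regions were chrX:84673094-84674262 (1169 bp), with no peak of the 6 other lists, and chrX:133311565-133312772 (1208 bp), with 206 bp of control H3K9ac and none after butyrate.

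**Figure D5:**
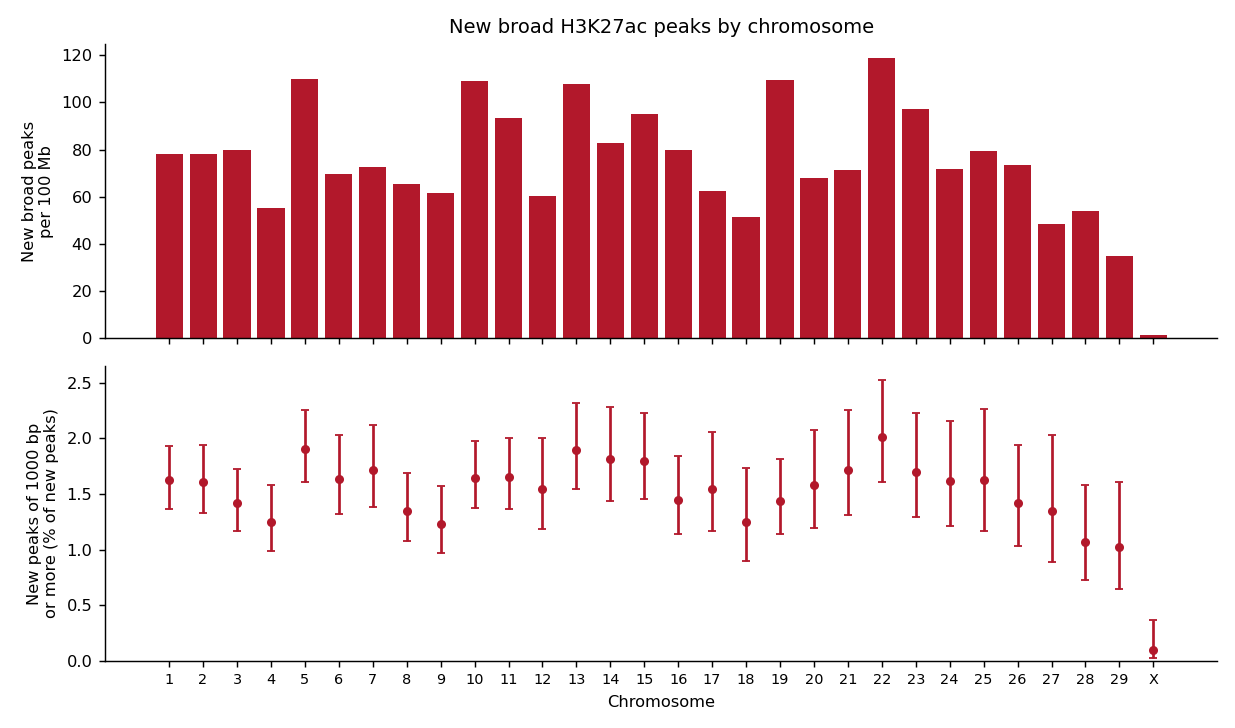
New broad peaks per 100 Mb (top) and as a percent of all new H3K27ac peaks (bottom, with 95% Wilson intervals) on each of the 30 nuclear chromosomes. Densities ran from 35.01 to 119 per 100 Mb on the autosomes and were 1.34 on the X chromosome.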

How the data were processed

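The deposited data were 1 peak list per ChIP library, which gives peak positions (chromosome, start and end, in bp) and no score. Per the methods of the study, the authors dropped 75-nt reads that did not pass the quality filter of the sequencer, aligned the rest with BWA and called peaks per library with MACS2 at default settings against the MDBK input, which was not analysed here. The processing notes name the build UMD3.1 and, with no stated role, Trim Galore 0.4.1. Mitochondrial peaks (5 to 15 per list) were left out. Printed starts are the listed starts plus 1, on the reading that the lists count from 0; the shortest listed length, 199 bp in every list, leaves a count from 1 possible. The lists were not in genome order, and their order was not used. Read numbers are not in the lists, so precision rests on peak numbers.

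New broad peaks were butyrate H3K27ac peaks of at least 1000 bp without a shared base with a control H3K27ac peak. The members, the measures and the rule for named regions were chosen with earlier results of these data known. Named regions were the 10 longest, the 5 largest chains (no gap above 12.47 kb), the 3 fullest 1 Mb windows, the 5 longest with butyrate H3K9ac and Pol II, the 5 longest with butyrate H3K9me3, the 5 farthest from control H3K27ac, and the 5 with most butyrate H3K9ac among those without control H3K9ac; the 2 regions of the X chromosome were named after their values were seen. Overlap meant at least 1 bp. Shares had 95% Wilson intervals and medians exact binomial intervals; with 1 library per group no test was run. Chromosome length was the last peak end in any list. The overlap counts were checked on simulated peaks. Alternatives were a limit of 1500 bp, no control peak within 1 kb, joined peaks, autosomes only, stricter overlap, and longer peaks of the other lists. Scripts ran in Python 3.11.15 with scipy 1.17.1, numpy 2.4.6 and, for plots, matplotlib 3.10.9.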

Additional observations from a re-analysis of the deposited data

Results flagged for a closer look

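H3K9ac bases changed in opposite directions in new and in kept broad H3K27ac peaks, with log2 ratios of butyrate to control of 1.62 and -0.25. These sets were divided by control H3K27ac, so that the contrast is not independent of the selection. With 1 library per group the difference was not tested. H3K9me3 bases within new broad peaks had a log2 ratio of -0.13 while the whole H3K9me3 list had 1.95, and this difference was not tested either.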

How the results depend on the processing

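No paired analysis was possible because there was 1 library a group, and none could be left out. Of 60 alternative values, 21 stayed within the interval of the reported value (or within 1.5 times for the number of regions) and 39 moved; the cause was not tested unless the alternative's construction gives it.

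A limit of 1500 bp left 245 regions, with a median length of 1707 bp and 7.35% in chains; H3K9ac met 47.3% in control and 87.8% after butyrate, Pol II 23.7% and 35.1%, and H3K9me3 8.98% in both. With no control H3K27ac peak within 1 kb, the median distance was 3.67 kb, 22.6% were in chains and control H3K9ac met 29.5%. Joining peaks less than 1 kb apart gave 12487 regions, with a median length of 1585 bp and distance of 5.18 kb, 51.3% in chains, 21.4% and 57.4% with control and butyrate H3K9ac, 14.6% and 15.2% with control and butyrate Pol II (intervals 14.0 to 15.2 and 14.6 to 15.8) and 5.64% with control H3K9me3. With gaps of at most 5 kb, 15.1% were in chains. For control and butyrate lists, cover of at least 50% of the region gave, for H3K9ac, Pol II and H3K9me3 in turn, 3.91% and 24.7%, 0.305% and 0.661%, and 0% (Wilson interval up to 0.195%) and 0.102%. The central base gave 12.3% and 39.3%, 3.51% and 6.86%, and 2.29% and 1.47%. Peaks of the other lists of 500 bp or more gave 4.32% and 23.3%, 0.305% and 1.07%, and 0.0508% and 0.153%. The butyrate share was above the control share for H3K9ac and Pol II under every alternative. For Pol II the intervals overlapped with joined peaks and with cover of at least 50% (0.140 to 0.664 and 0.387 to 1.13). For H3K9me3 the order turned with joined peaks, cover of at least 50% and peaks of 500 bp or more, and was equal at 1500 bp. With joined peaks its intervals did not overlap, at 5.64% in control (5.247 to 6.056) and 6.48% after butyrate (6.060 to 6.924). They overlapped with cover of at least 50% (0 to 0.195 and 0.0279 to 0.370) and with peaks of 500 bp or more (0.00897 to 0.287 and 0.0519 to 0.447). Peak lists without heights or reads limit any stricter threshold to length.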

Other observations

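The 1045 new broad peaks without a peak of any control list (53.1%) had butyrate H3K9ac in 721 (69.0%, 66.1 to 71.7), butyrate Pol II in 218 (20.9%, 18.5 to 23.4), both in 172 (16.5%) and butyrate H3K9me3 in 49 (4.69%). Of these 1045, 73 (6.99%) were 20 kb or more from control H3K27ac. Among the 104619 shorter new peaks without a control peak of any antibody, butyrate H3K9ac met 22.1%, butyrate Pol II 3.95%, both 1.74% and butyrate H3K9me3 2.17%. Of those shorter peaks 11.6% were 20 kb or more from control H3K27ac, a larger share than among the 1045 new broad peaks.

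The reverse case concerned few regions. Of 4594 control H3K27ac peaks of at least 1000 bp, 80 (1.74%, 1.40 to 2.16) met no butyrate H3K27ac peak, with a median length of 1138 bp (1094 to 1227). Control H3K9ac met 62 of these 80 (77.5%, 67.2 to 85.3) and butyrate H3K9ac 9 (11.3%, 6.03 to 20.02), the reverse of the order at new broad peaks. The selection was reversed as well, so that this order is not independent of it. Pol II met 5 in control and 7 after butyrate.

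Of the peaks of the other lists, those that met a new broad peak made up 1.15% of H3K9ac peaks in control and 1.91% after butyrate, 0.567% and 1.83% of Pol II peaks, and 0.566% and 0.146% of H3K9me3 peaks.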
